A study of Homo sapiens with 4 samples.

Results

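The genes described here are those of the unfolded protein response and the integrated stress response, in A549 and H441 cells 48 h after silencing of TAZ. A list of 39 genes was matched to the array by gene symbol, and 37 of the 18377 named genes on the array were members. ATF6B and PDIA3 are also on the list and are not analysed here: each shares its probe sets with another gene. The members fall into 4 arms: ATF6 and the chaperones (12 measured), IRE1-XBP1 (5), PERK-ATF4 (12) and ER-associated degradation, ERAD (8). A549 and H441 are established human lung adenocarcinoma lines. The groups are A549 siNTC, A549 siTAZ, H441 siNTC and H441 siTAZ, where siNTC is the control siRNA and siTAZ the one against TAZ, a Hippo pathway co-activator whose gene is WWTR1. All 4 were transfected with the same lipid reagent, and each is represented by a single whole-transcript array without replicates. The sequence and number of siRNAs behind siTAZ are not known here.

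The endoplasmic reticulum (ER) folds secreted and membrane proteins, and unfolded protein there is sensed by 3 membrane proteins. ATF6 is cut to release a transcription factor for chaperone genes, and IRE1, encoded by ERN1, splices XBP1 mRNA into the form that makes an active factor. PERK, encoded by EIF2AK3, phosphorylates the initiation factor eIF2, which slows translation in general while favouring that of ATF4. GCN2, encoded by EIF2AK4, does the same on amino acid shortage, so ATF4 and its targets also serve as the integrated stress response. ERAD proteins draw misfolded proteins out of the ER for destruction. Much of this signalling acts through cleavage, splicing and translation, which the mRNA signals given here do not measure.

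The promoters of the members were searched for sequence elements known from this pathway. The search covered 35 members, from 250 bases before to 50 after the start in RefSeq (GRCh38.p14), on both strands. DERL1 and DERL3 had no entry. The ER stress response element, ERSE (CCAAT, any 9 bases, then CCACG), is the site known to be bound by ATF6 with NF-Y. It was found in 7 members, 20% of the 35: CALR, CANX, CRELD2, HSP90B1, HSPA5, PDIA6 and XBP1. The same letters stood in 25 of all 27305 genes with a promoter, 0.0916%. The related ERSE-II (ATTGG, any base, then CCACG) was found in HERPUD1, HYOU1 and SDF2L1, against 19 of all genes (0.0696%). The UPR element of XBP1 (TGACGTGG) was found in DNAJC10 and HYOU1, 5.71% of the members, against 0.927% of all genes. The ATF4-binding C/EBP-ATF element, CARE (TGATGNAAN), was found in ASNS, CHAC1 and HERPUD1, 8.57% of the members, against 4.45% of all genes. The list was drawn from the same pathway as the elements, so its shares are no independent result. A match is a description of the letters and not a bound site.

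The 250 bases before the start are shown for 6 members, 5′ to 3′ on the gene's own strand, because they carry the elements searched for and include members of each arm. Capitals mark the matches. They mark an ERSE in HSPA5 and XBP1, and 2 ERSE-II matches in HYOU1, the farther of which overlaps a UPR element. In HERPUD1 they mark a CARE on the opposite strand followed by an ERSE-II, in CHAC1 a CARE on the opposite strand, and in ASNS a CARE. The windows are chr9:125241344-125241593 (minus strand) for HSPA5, chr11:119057206-119057455 (minus strand) for HYOU1, chr22:28800570-28800819 (minus strand) for XBP1, chr16:56931892-56932141 (plus strand) for HERPUD1, chr15:40953221-40953470 (plus strand) for CHAC1 and chr7:97872409-97872658 (minus strand) for ASNS.
HSPA5: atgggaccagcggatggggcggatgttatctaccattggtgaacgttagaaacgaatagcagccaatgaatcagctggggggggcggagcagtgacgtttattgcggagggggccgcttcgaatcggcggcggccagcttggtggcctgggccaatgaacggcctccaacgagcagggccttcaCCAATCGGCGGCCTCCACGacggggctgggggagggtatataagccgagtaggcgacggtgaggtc
HYOU1: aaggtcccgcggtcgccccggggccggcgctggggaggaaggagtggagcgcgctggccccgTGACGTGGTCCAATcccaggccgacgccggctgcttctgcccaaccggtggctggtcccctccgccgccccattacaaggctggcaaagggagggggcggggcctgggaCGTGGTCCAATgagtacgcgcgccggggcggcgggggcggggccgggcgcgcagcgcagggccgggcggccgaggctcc
XBP1: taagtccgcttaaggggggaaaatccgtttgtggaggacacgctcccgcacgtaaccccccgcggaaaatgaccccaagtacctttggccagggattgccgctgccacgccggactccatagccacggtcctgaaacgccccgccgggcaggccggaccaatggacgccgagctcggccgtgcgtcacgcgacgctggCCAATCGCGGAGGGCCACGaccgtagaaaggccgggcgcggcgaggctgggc
HERPUD1: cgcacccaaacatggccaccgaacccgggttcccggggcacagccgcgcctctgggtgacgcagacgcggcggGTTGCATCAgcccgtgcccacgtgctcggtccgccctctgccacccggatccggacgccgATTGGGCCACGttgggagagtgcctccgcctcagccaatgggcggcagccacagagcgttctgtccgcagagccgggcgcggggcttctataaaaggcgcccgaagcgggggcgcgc
CHAC1: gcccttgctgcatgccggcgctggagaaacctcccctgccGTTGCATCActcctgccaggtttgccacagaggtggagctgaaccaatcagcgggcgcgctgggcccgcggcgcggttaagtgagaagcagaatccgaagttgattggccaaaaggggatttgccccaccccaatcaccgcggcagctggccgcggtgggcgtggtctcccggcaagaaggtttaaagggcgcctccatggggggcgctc
ASNS: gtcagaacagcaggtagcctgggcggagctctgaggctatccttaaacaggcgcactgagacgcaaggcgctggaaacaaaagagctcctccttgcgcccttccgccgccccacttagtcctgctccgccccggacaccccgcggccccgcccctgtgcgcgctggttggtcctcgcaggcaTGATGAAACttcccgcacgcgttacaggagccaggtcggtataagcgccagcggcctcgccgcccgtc
The ERSE lay from 66 to 48 bases before the start in HSPA5 and from 52 to 34 in XBP1. The CARE lay from 68 to 60 bases before the start in ASNS, from 210 to 202 in CHAC1 and from 177 to 169 in HERPUD1.

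Values are log2 RMA signals, deposited by the authors, and differences are siTAZ minus siNTC on that scale unless stated otherwise. Array medians lay between 6.05 and 6.25, and each value within a group is a single array. WWTR1 was 5.27-fold lower with siTAZ in A549 and 4.40-fold lower in H441. Of 11 markers of lung adenocarcinoma epithelium, 6 or 7 on the A549 arrays and 10 on the H441 arrays reached the median of the whole table (6.13). NKX2-1, SFTPB, NAPSA and SLC34A2 lay below it on both A549 arrays and SFTPC on both H441 arrays. Of the 14 matched markers of leukocytes, endothelium and fibroblasts, PTPRC, CD3E, PECAM1, CDH5, VWF, PDGFRA, PDGFRB and DCN lay below it on all 4 arrays. CD68 and COL1A1 reached it on all 4, CD14 on the A549 arrays only, and KDR, LUM and COL3A1 on the H441 arrays only. The log2 of the summed signal was 9.22 and 9.45 on the A549 arrays and 10.46 and 10.53 on the H441 arrays for leukocyte markers. It was 7.15 and 7.21 against 8.31 and 8.47 for endothelial markers, and 8.48 and 8.68 against 9.40 and 9.54 for fibroblast markers. Of the leukocyte markers, CD68 alone had 10.34 and 10.41 on the H441 arrays. In bulk RNA, fewer cells of a type and less RNA per cell cannot be told apart, and the part of these line differences in the results was not tested.

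**Figure D1:**
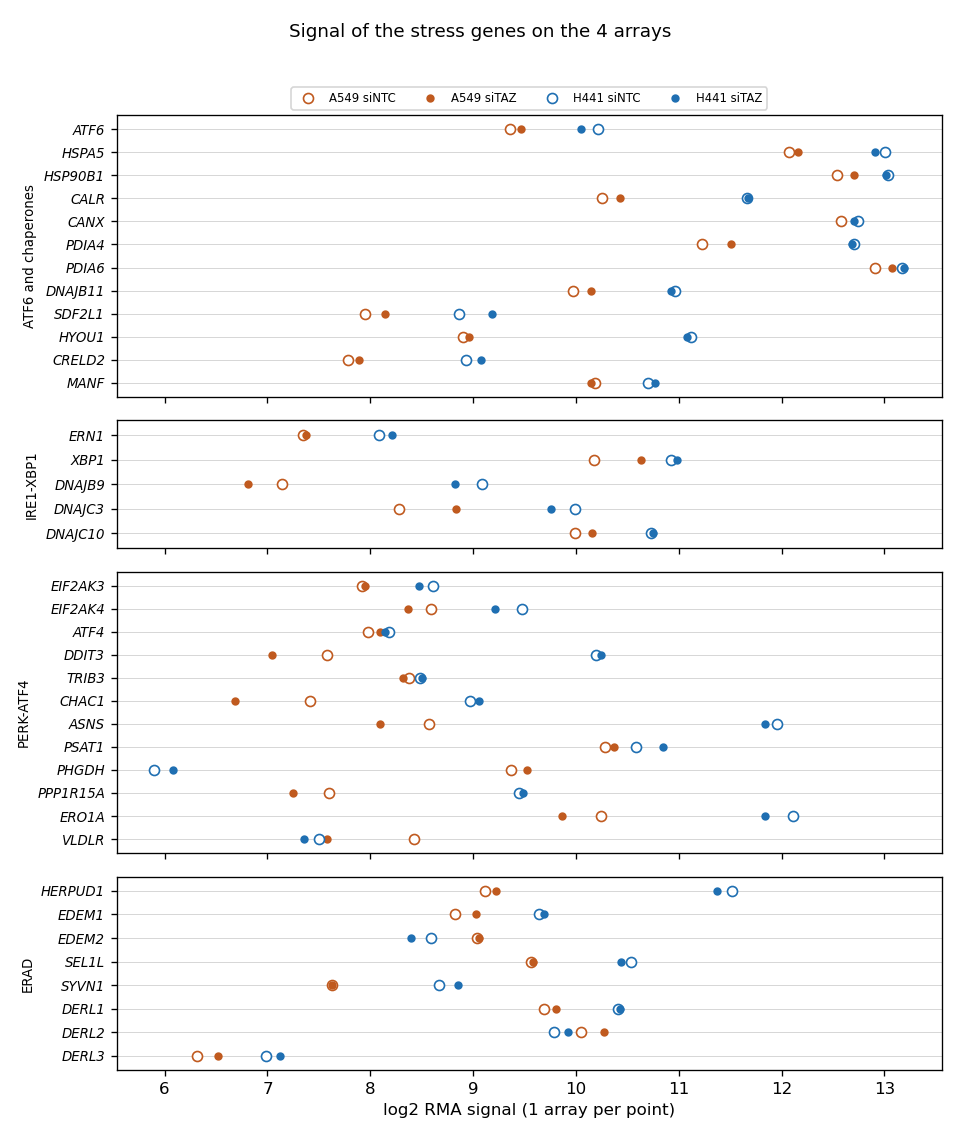
Log2 RMA signal of the 37 measured members (horizontal axis), grouped by arm. Open circles are siNTC arrays and filled circles siTAZ arrays, orange for A549 and blue for H441, 1 array per point. Both H441 arrays lie to the right of both A549 arrays for 32 members, and PHGDH, VLDLR, EDEM2 and DERL2 lie the other way.

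After siTAZ no member passed the test over both lines, and differences within a line were small. In A549, most chaperone and ERAD members read slightly higher with siTAZ, 11 of 12 and 7 of 8, and 8 of the 12 PERK-ATF4 members read lower. In H441 the direction of the chaperones depended on how the arrays were scaled. In A549, 26 of 37 members were higher with siTAZ by any amount, against 50.9% of all 11405 genes at or above the table median. In H441, 18 of 36 were, against 50.8% of 11911. Median centring lowers every H441 difference alike, by 0.08, and left 8 of 36 members higher, against 33.2% of all genes. After quantile normalization 24 were higher, against 53.1%, and after cyclic loess 23, against 51.5%. In A549, 0 members were at least 1.5-fold higher (1.76% of all genes) and 2 at least 1.5-fold lower (1.07% of all genes), CHAC1 and VLDLR. In H441, 0 members were at least 1.5-fold higher (0.479% of all genes) and 0 lower (0.974%). Over both lines limma with cell line as a block called 0 of 37 members at an adjusted p under 0.05, against 2.47% of all 12740 genes tested. At an unadjusted limma p under 0.05 there were 7 members, 18.9%, against 13.2% of all genes: SDF2L1, DNAJB9, EIF2AK4, CHAC1, ASNS, ERO1A and VLDLR. Of these, 5 belong to the PERK-ATF4 arm, which holds 12 of the 37 members. That depended on the scaling. After quantile normalization, and after cyclic loess, the members at an unadjusted limma p under 0.05 were SDF2L1, XBP1, DNAJB9, ERO1A and VLDLR. Only ERO1A and VLDLR among them are of that arm. The fit rests on 1 residual degree of freedom, the disagreement between the lines. A difference in 1 line alone enters this fit at a part of its size, as the mean over the lines, and 4 arrays leave nothing to test whether the lines responded differently.

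**Figure D2:**
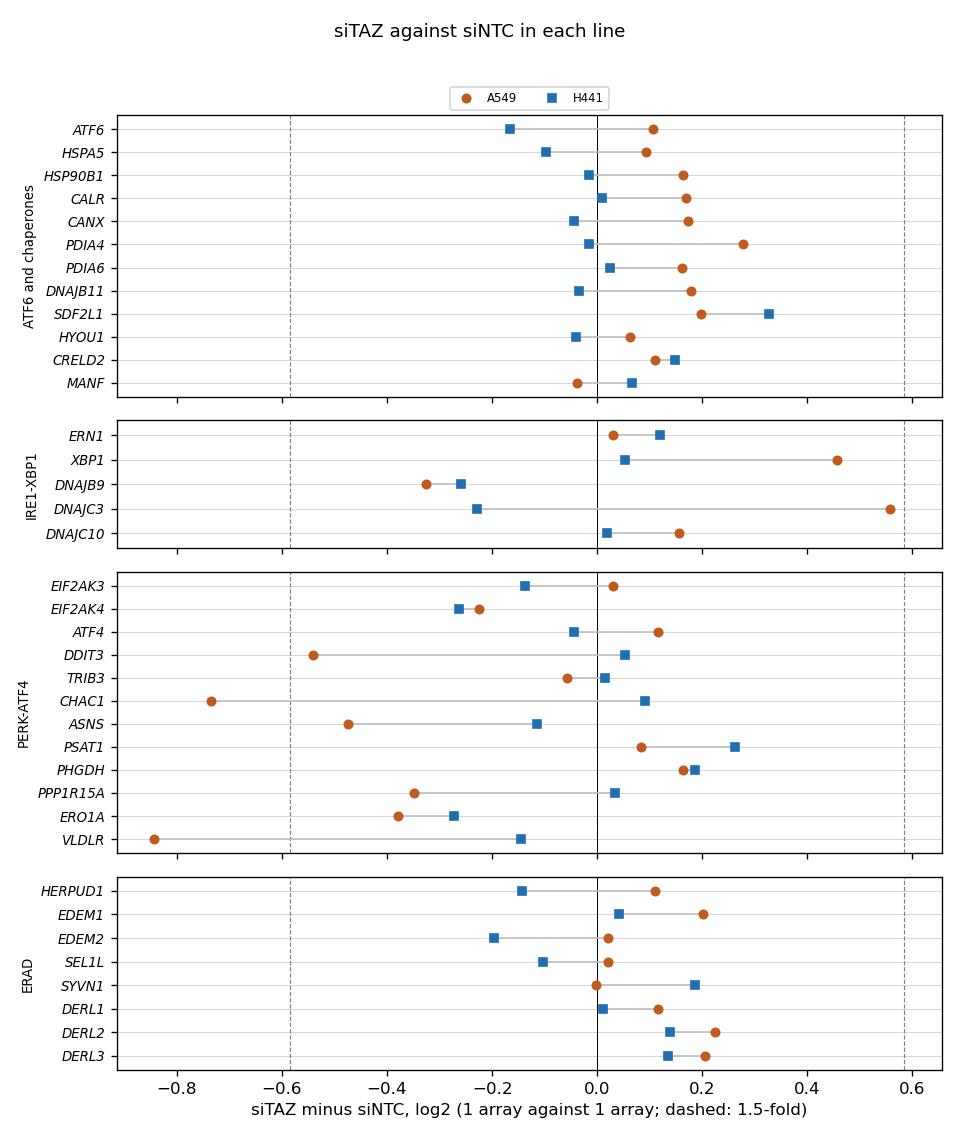
Difference of log2 signal, siTAZ minus siNTC, for each member by arm (orange circles A549, blue squares H441, 1 array against 1 array). Dashed lines mark 1.5-fold. CHAC1 and VLDLR in A549 are the points beyond them.

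In the arm of ATF6 and the chaperones, 11 of 12 members were higher with siTAZ in A549, with a median difference of 0.16, against 0.01 over all genes. In H441, 5 of 12 were higher and the median was -0.02, but that direction turned with the scaling: 2 of 12 were higher after median centring, 11 after quantile normalization and 10 after cyclic loess, where 33.2%, 53.1% and 51.5% of all genes were. The A549 count was 11 under each of these. The sensor ATF6 had 9.36 with siNTC and 9.47 with siTAZ in A549, and 10.22 and 10.05 in H441. Its differences, 0.11 in A549 and -0.16 in H441, had opposite signs (limma adjusted p = 0.95). HSPA5, or BiP, is the main Hsp70 chaperone of the ER and holds the sensors inactive. It had 12.07 with siNTC and 12.16 with siTAZ in A549, and 13.01 and 12.91 in H441. HSP90B1, or GRP94, is the ER member of the Hsp90 family, and its signals were 12.54 with siNTC and 12.70 with siTAZ in A549, and 13.03 and 13.02 in H441. On the deposited scale the siRNAs differed less than the lines for both chaperones. For HSP90B1 this did not hold after cyclic loess, with -0.07 for A549 minus H441 and 0.16 for siTAZ minus siNTC in A549.

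Calreticulin (CALR) and calnexin (CANX) are the lectin chaperones that retain glycoproteins until folded. CALR had 10.26 with siNTC and 10.42 with siTAZ in A549, and 11.66 and 11.67 in H441. CANX had 12.58 with siNTC and 12.75 with siTAZ in A549, and 12.74 and 12.70 in H441, and was the only chaperone whose A549 and H441 arrays overlapped. PDIA4 and PDIA6 are disulfide isomerases. PDIA4 had 11.23 with siNTC and 11.50 with siTAZ in A549, and 12.70 and 12.69 in H441, and its A549 difference of 0.28 was the largest of the arm in that line. PDIA6 had 12.91 with siNTC and 13.07 with siTAZ in A549, and 13.17 and 13.19 in H441, among the brightest probe sets of the members.

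The cochaperones of this arm had A549 differences from 0.06 to 0.20. DNAJB11 (ERdj3), which hands clients to BiP, had 9.97 with siNTC and 10.15 with siTAZ in A549, and 10.96 and 10.92 in H441. SDF2L1, its binding partner, had 7.95 with siNTC and 8.15 with siTAZ in A549, and 8.86 and 9.19 in H441. It was the member with the largest positive difference in H441 (0.33, and 0.20 in A549) (limma adjusted p = 0.32). HYOU1 (GRP170), a nucleotide exchange factor for BiP, had 8.90 with siNTC and 8.96 with siTAZ in A549, and 11.12 and 11.08 in H441. Its siRNA differences, 0.06 in A549 and -0.04 in H441, were small beside the gap between the lines.

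CRELD2 and MANF encode stress-induced proteins of the ER lumen that can be secreted. CRELD2 had 7.78 with siNTC and 7.89 with siTAZ in A549, and 8.93 and 9.08 in H441. MANF had 10.18 with siNTC and 10.14 with siTAZ in A549, and 10.70 and 10.76 in H441, and was the only member of the arm that was lower with siTAZ in A549 (-0.04).

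In the IRE1-XBP1 arm, the median difference was 0.16 in A549 and 0.02 in H441 (-0.07 there after median centring). ERN1, the sensor gene, had 7.35 with siNTC and 7.38 with siTAZ in A549, and 8.09 and 8.21 in H441, so its siTAZ array was higher by only 0.03 in A549 and 0.12 in H441. XBP1 had 10.18 with siNTC and 10.63 with siTAZ in A549, and 10.93 and 10.98 in H441. This gave differences of 0.46 in A549 and 0.05 in H441 (limma adjusted p = 0.38). A single probe set stands for XBP1, and the spliced and unspliced forms are not told apart.

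DNAJC3 (p58IPK), a cochaperone that also inhibits PERK, had the largest positive difference of all members in A549. It had 8.28 with siNTC and 8.83 with siTAZ in A549, and 9.99 and 9.76 in H441. The differences of 0.56 in A549 and -0.23 in H441 ran in opposite directions (adjusted p = 0.7). DNAJB9 (ERdj4), which brings BiP to IRE1, was lower with siTAZ in both lines. It had 7.14 with siNTC and 6.81 with siTAZ in A549, and 9.09 and 8.83 in H441, with differences of -0.33 in A549 and -0.26 in H441 (limma adjusted p = 0.24). DNAJC10 (ERdj5), a reductase that aids ERAD, had 9.99 with siNTC and 10.15 with siTAZ in A549, and 10.73 and 10.74 in H441. No direction was common to this arm's cochaperones.

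In the PERK-ATF4 arm, 8 of 12 members were lower with siTAZ in A549, against 5518 of all 11405 genes. Their median difference there was -0.29. The arm's median in H441 was -0.04 over 11 members, with 6 lower. After median centring it was -0.13 with 9 lower, where 33.2% of all genes were higher. It was -0.03 after quantile normalization and after cyclic loess. The kinase gene EIF2AK3 had 7.92 with siNTC and 7.95 with siTAZ in A549, and 8.61 and 8.48 in H441. EIF2AK4 had 8.59 with siNTC and 8.37 with siTAZ in A549, and 9.47 and 9.21 in H441. This gave EIF2AK4 -0.23 in A549 and -0.26 in H441, lower with siTAZ in both (limma adjusted p = 0.37). ATF4 itself had 7.97 with siNTC and 8.09 with siTAZ in A549, and 8.18 and 8.14 in H441. For this central factor, siTAZ minus siNTC was 0.12 in A549 and -0.04 in H441, with a limma adjusted p of 0.94.

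Genes known to be induced by ATF4 spread over a wide range in A549. DDIT3, which encodes the stress factor CHOP, had 7.58 with siNTC and 7.04 with siTAZ in A549, and 10.19 and 10.24 in H441. It was 1.45-fold lower with siTAZ in A549 and 0.05 higher on the log2 scale in H441 (adjusted p = 0.45). CHAC1, an enzyme that breaks down glutathione, had 7.42 with siNTC and 6.68 with siTAZ in A549, and 8.96 and 9.05 in H441. It was 1.66-fold lower in A549 and 0.09 higher on the log2 scale in H441 (limma adjusted p = 0.32). PPP1R15A (GADD34), the phosphatase subunit that restores eIF2 activity, had 7.60 with siNTC and 7.25 with siTAZ in A549, and 9.45 and 9.48 in H441. DDIT3, CHAC1 and PPP1R15A thus were lower with siTAZ in A549 and slightly higher in H441, where median centring turned DDIT3 to -0.03 and PPP1R15A to -0.05.

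ASNS, asparagine synthetase, had 8.57 with siNTC and 8.10 with siTAZ in A549, and 11.95 and 11.84 in H441. Its differences were -0.47 in A549 and -0.11 in H441 (limma adjusted p = 0.26). ERO1A, the oxidase that drives disulfide formation and a known target of CHOP, had 10.24 with siNTC and 9.86 with siTAZ in A549, and 12.11 and 11.83 in H441. It was lower with siTAZ in both lines, by 0.38 in A549 and 0.27 in H441 (limma adjusted p = 0.17), and the H441 value was the lowest of any member there on the deposited scale (DNAJB9 was lower after quantile normalization and cyclic loess).

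VLDLR, a lipoprotein receptor gene that ATF4 signalling can induce, had the lowest difference of all members. It had 8.42 with siNTC and 7.58 with siTAZ in A549, and 7.50 and 7.36 in H441. The siTAZ array was 1.79-fold lower in A549, and 0.14 lower on the log2 scale in H441 (mean -0.49, adjusted p = 0.056). VLDLR passed the limma test after median centring of the arrays (adjusted p = 0.0086) and with a prior that follows the mean level (0.0035). It did not after quantile normalization (0.17), after cyclic loess (0.27) or without the filter on dim genes (0.23). In the fit with the trended prior ERO1A passed as well (adjusted p = 0.014). With a trend 4.66% of all genes were called, and with median centring 3.16%.

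TRIB3 differed little between the siRNAs, by -0.06 in A549 and 0.01 in H441. The serine synthesis genes were not lower with siTAZ in A549, unlike the other ATF4 targets of this arm. TRIB3, a pseudokinase gene, had 8.38 with siNTC and 8.32 with siTAZ in A549, and 8.49 and 8.50 in H441. PSAT1 and PHGDH encode enzymes of serine synthesis. PSAT1 had 10.28 with siNTC and 10.37 with siTAZ in A549, and 10.58 and 10.84 in H441. PHGDH had 9.36 with siNTC and 9.53 with siTAZ in A549, and 5.90 and 6.08 in H441, both H441 arrays lying below the table median. The 2 serine synthesis genes were higher with siTAZ in both lines, by 0.08 and 0.26 for PSAT1 and by 0.16 and 0.19 for PHGDH, and neither passed the test (adjusted p = 0.59 and 0.58).

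In the ERAD arm, 7 of 8 members were higher with siTAZ in A549, against 50.9% of all genes, with a median of 0.11. In H441 5 of 8 were higher, against 50.8% of all genes, with a median of 0.03 (-0.06 after median centring). HERPUD1, which assembles the ERAD complex at the membrane, had 9.11 with siNTC and 9.22 with siTAZ in A549, and 11.51 and 11.37 in H441. SEL1L, the adaptor of the ubiquitin ligase, had 9.56 with siNTC and 9.58 with siTAZ in A549, and 10.54 and 10.44 in H441. SYVN1 (HRD1), that ligase, had 7.63 with siNTC and 7.63 with siTAZ in A549, and 8.66 and 8.85 in H441. For these 3 core genes no siRNA difference reached 0.20 in size on the deposited scale. In H441, HERPUD1 had -0.23 after median centring, and SYVN1 0.22 after quantile normalization.

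EDEM1 and EDEM2 encode mannosidase-like proteins that mark glycoproteins for disposal. EDEM1 had 8.82 with siNTC and 9.02 with siTAZ in A549, and 9.64 and 9.68 in H441. EDEM2 had 9.03 with siNTC and 9.05 with siTAZ in A549, and 8.59 and 8.39 in H441. The pair differed in which line was higher. The derlins form part of the export channel. DERL1 had 9.69 with siNTC and 9.80 with siTAZ in A549, and 10.41 and 10.42 in H441. DERL2 had 10.05 with siNTC and 10.27 with siTAZ in A549, and 9.79 and 9.92 in H441. DERL3 had 6.31 with siNTC and 6.52 with siTAZ in A549, and 6.99 and 7.12 in H441, and was the dimmest of the ERAD probe sets in A549. All 3 derlin genes were higher with siTAZ in both lines, by between 0.01 and 0.22, with DERL1 at -0.07 in H441 after median centring, and none passed the test (adjusted p = 0.89, 0.56 and 0.59).

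The members with an ERSE or ERSE-II in the promoter were all higher with siTAZ in A549, against 50.9% of all genes. All but XBP1 and HERPUD1 belong to the chaperone arm, so element and arm are not separated here. Of that arm's members with neither element, ATF6, PDIA4 and DNAJB11 were higher too and MANF lower. The 10 differences ran from 0.06 for HYOU1 to 0.46 for XBP1, with a median of 0.16. In H441, 5 of these 10 were higher and 5 lower on the deposited scale, where the direction of the chaperones turned with the scaling. The 25 members with a promoter and neither element include the whole PERK-ATF4 arm. They had a median of 0.02 in A549, with 14 higher and 11 lower. The 3 members with a CARE had -0.73 for CHAC1, -0.47 for ASNS and 0.11 for HERPUD1, which also has an ERSE-II. These are single differences of arrays and were given no test.

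**Figure D3:**
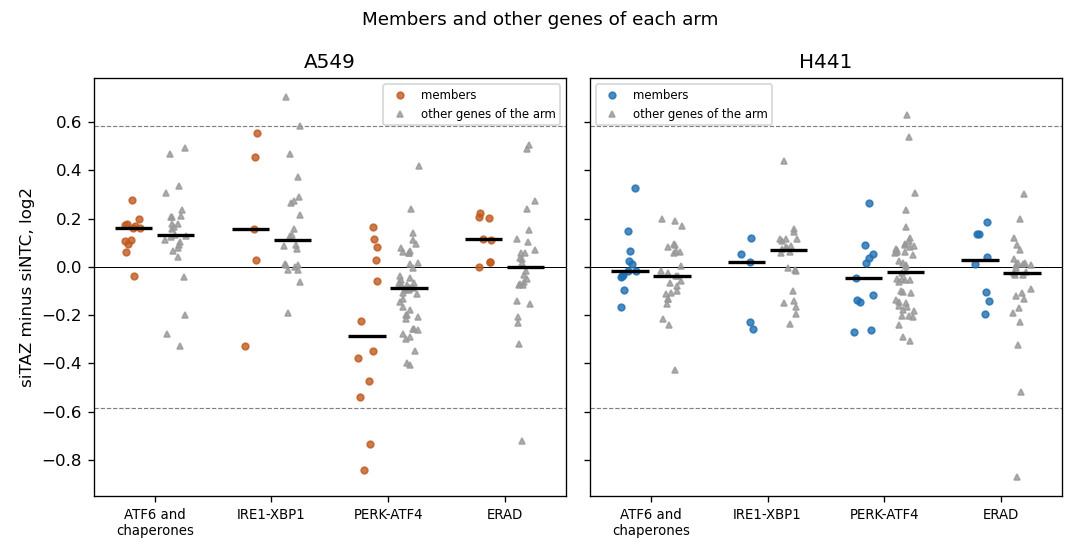
Difference of log2 signal, siTAZ minus siNTC, in A549 (left) and H441 (right) for members (circles) and 118 other genes of the same arms (grey triangles) at or above the table median in that line. Black bars are medians and dashed lines 1.5-fold. In A549 the medians are above 0 for the chaperone and IRE1-XBP1 arms and below 0 for the PERK-ATF4 arm.

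Other genes of the pathway, 122 matched of 128 listed, gave a median for each arm in A549. Of all genes, 50.9% were higher with siTAZ in that line, with a median of 0.01. For 25 other folding enzymes and chaperones the A549 median was 0.13, with 21 higher. For 22 genes of the translocon, signal recognition particle and IRE1 signalling it was 0.11, with 17 higher. For 45 other genes of the integrated stress response, among them tRNA synthetases and amino acid transporters, it was -0.09, with 33 lower. For 26 other ERAD genes it was -0.00045, with 13 higher and 13 lower. In H441 these medians were -0.04, 0.07, -0.02 and -0.02 on the deposited scale. Median centring lowers every H441 difference by 0.08, which exceeds each of these medians in size.

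Over both lines 1 of 120 tested other genes passed the limma test, against 2.47% of all genes, and 16 (13.3%) had an unadjusted p under 0.05, near the 13.2% of all genes. The call was ERLIN1, part of an ER membrane complex that sends the IP3 receptor to ERAD. It fell by 0.80 ± 0.12 (limma SE, 2 lines, adjusted p = 0.0003), with differences of -0.72 in A549 and -0.87 in H441. Among folding genes, the largest mean differences were 0.33 for TMX4 and 0.22 for SDF2, and -0.35 for RCN1 and -0.28 for FKBP14. The signal peptidase subunit SPCS2 had 0.70 in A549 and 0.08 in H441, and the translocon gene SEC63 had 0.58 and 0.12. The lowest means of that group were -0.21 for SRP72 and -0.11 for SRP68, of the signal recognition particle. They do not stand for the particle, since SRP19 had 0.26 and the receptor gene SRPRB 0.28, values looked up after the others were seen. In the integrated stress response, VEGFA had 0.24 and 0.63 and PPP1R15B, the constitutive counterpart of PPP1R15A, 0.42 and 0.31. The tRNA synthetase genes CARS1 and YARS1 had -0.40 and -0.41 in A549 and -0.29 and -0.17 in H441. In ERAD, EDEM3 and SELENOS had means of 0.29 and 0.21, and the ubiquitin-conjugating enzyme gene UBE2J1 -0.30. All of these but ERLIN1 failed the adjusted test, with adjusted p from 0.062 for VEGFA to 0.79 for SRP68.

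The contrast between the lines was far larger than that between siRNAs. Most members were higher in H441, from sensors and chaperones to CHOP and asparagine synthetase, and PHGDH was the main exception. Both H441 arrays exceeded both A549 arrays for 32 of 37 members, against 60.5% of all genes, and the reverse held for 4 members, against 23.4%. By the cell line coefficient of the limma fit, 29 members (78.4%) were higher in H441, against 52.8% of all genes, and 4 were higher in A549, against 19%. At least 2-fold and called, 13 members (35.1%) were higher in H441, against 16.5% of all genes, and 1 in A549, against 7.24%. The median of A549 minus H441 was -0.79 over the members and -0.31 over all genes tested. This test compares 2 arrays of each line, which differ in siRNA and are not repeats of a condition.

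How the lines were scaled to each other affects this contrast, since most genes on these arrays read higher in H441. After quantile normalization 22 members (59.5%) were higher in H441 and 4 (10.8%) in A549, against 32.7% and 32.1% of all genes. After cyclic loess these were 24 (64.9%) and 5 (13.5%), against 31.4% and 32.2%. After median centring they were 27 (73%) and 4 (10.8%), against 41.4% and 24.5%. Of the 29, 22 kept their call under all 3 rescalings. The other 7 were HSP90B1, MANF, XBP1, DNAJC10, EIF2AK3, PSAT1 and DERL1. The count at least 2-fold higher in H441 was 8 (21.6%) after quantile normalization and 8 after cyclic loess, against 9.59% and 9.45% of all genes. CALR, PDIA4, CRELD2, DNAJC3 and SYVN1 were the members that fell below 2-fold under both.

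**Figure D4:**
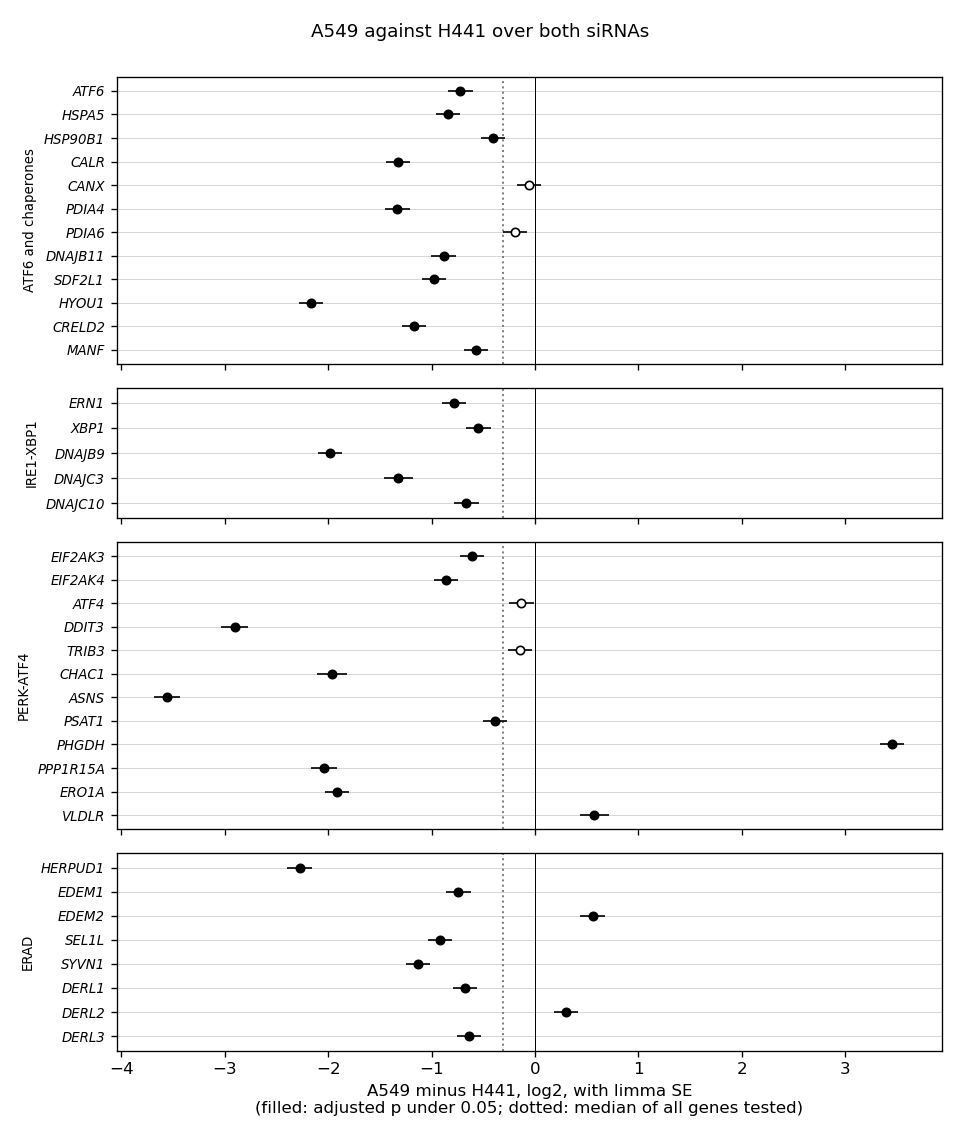
A549 minus H441 on the log2 scale for each member by arm, from the limma fit over 4 arrays, with its standard error. Filled points passed the test at an adjusted p under 0.05, and the dotted line is the median of all genes tested, -0.31. ASNS at -3.56 and PHGDH at 3.45, whose H441 arrays lie below the table median, are the extremes.

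The gaps were wide for several targets of ATF4. ASNS was 11.8-fold higher in H441 (A549 minus H441 -3.56 ± 0.12, limma SE, 2 arrays per line, adjusted p = 5.7e-18), and the gap stayed between -3.56 and -3.16 under the 3 rescalings. DDIT3 was 7.49-fold higher in H441 (-2.90 ± 0.13, adjusted p = 1.4e-15). PPP1R15A was 4.11-fold, CHAC1 3.89-fold and ERO1A 3.78-fold higher there. ATF4 mRNA was not called, at -0.13 ± 0.12 (adjusted p = 0.32), nor was TRIB3, at -0.14 ± 0.12 (adjusted p = 0.28). The gaps of both had the opposite sign under each of the 3 rescalings.

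The gaps of the 5 targets named as higher in H441 were all wider on the siTAZ arrays than on the siNTC arrays. For DDIT3, A549 minus H441 was -2.61 with siNTC and -3.20 with siTAZ. For CHAC1 it was -1.55 and -2.37, and for ASNS -3.38 and -3.74. For PPP1R15A it was -1.85 and -2.23, and for ERO1A -1.86 and -1.97. These 5 were named for their wide gaps, and not all wide gaps widened. HYOU1 had -2.22 with siNTC and -2.12 with siTAZ, and HERPUD1 -2.40 and -2.15. The change of gap is the siTAZ difference in A549 minus that in H441, so it restates those differences. It was not tested.

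Serine synthesis genes did not share a direction. PHGDH, which opens the pathway, lay below the table median on both H441 arrays. With these set to that median, it was at least 9.96-fold higher in A549 (limma adjusted p = 3.9e-18 on the measured values). PSAT1, the next enzyme, was 1.31-fold higher in H441 (adjusted p = 0.0057), a call lost under each rescaling. VLDLR was 1.49-fold higher in A549 (adjusted p = 0.00069), a gap carried by the siNTC arrays (0.92, against 0.22 on the siTAZ arrays). The kinase genes EIF2AK3 and EIF2AK4 were 1.53-fold and 1.82-fold higher in H441. EIF2AK3 lost its call after quantile normalization and cyclic loess (limma adjusted p = 0.078 and 0.075).

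Among chaperones, HYOU1 differed most, 4.49-fold higher in H441 (-2.17 ± 0.12, adjusted p = 4.1e-14). PDIA4 (2.52-fold), CALR (2.51-fold) and CRELD2 (2.25-fold) were also at least 2-fold higher there on the deposited scale. All were under 2-fold after quantile normalization (-0.95, -0.92 and -0.80) and after cyclic loess (-0.97, -0.94 and -0.80). HSPA5 was 1.79-fold higher in H441 (adjusted p = 9.4e-07), SDF2L1 1.96-fold, DNAJB11 1.84-fold, ATF6 1.65-fold, MANF 1.48-fold and HSP90B1 1.33-fold. HSP90B1 lost its call under each rescaling, and MANF after quantile normalization and cyclic loess. CANX and PDIA6 were not called (adjusted p = 0.67 and 0.14). After cyclic loess CANX was called higher in A549 (0.29, adjusted p = 0.041). The median of this arm was -0.86, and -0.49 after quantile normalization or cyclic loess.

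In the IRE1-XBP1 arm all 5 members were called higher in H441 on the deposited scale, against 52.8% of all genes. DNAJB9 was 3.95-fold higher (-1.98 ± 0.12, adjusted p = 2.3e-13), DNAJC3 2.5-fold, ERN1 1.72-fold, DNAJC10 1.58-fold and XBP1 1.46-fold. XBP1 lost its call after quantile normalization and cyclic loess (limma adjusted p = 0.31 and 0.27), and DNAJC10 after quantile normalization (0.06). In the ERAD arm HERPUD1 was 4.84-fold higher in H441 (-2.27 ± 0.12, adjusted p = 2.4e-14) and SYVN1 2.19-fold. SEL1L, EDEM1, DERL1 and DERL3 were 1.89-fold, 1.67-fold, 1.6-fold and 1.56-fold higher there. DERL1 lost its call after quantile normalization (limma adjusted p = 0.054). EDEM2 and DERL2 were higher in A549, 1.47-fold (adjusted p = 0.00021) and 1.23-fold (adjusted p = 0.024).

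Of 120 other genes of the pathway, 86 (71.7%) were called higher in H441, against 52.8% of all genes, and 12 (10%) in A549, against 19%. The H441 count was 70 (58.3%) after median centring, 54 (45%) after quantile normalization and 53 (44.2%) after cyclic loess, against 41.4%, 32.7% and 31.4% of all genes. The A549 count was then 14 (11.7%), 24 (20%) and 22 (18.3%), against 24.5%, 32.1% and 32.2%. By arm, the H441-higher calls were 20 of 26 folding genes, 18 of 22 genes of the translocon and IRE1 signalling, 30 of 46 genes of the integrated stress response and 18 of 26 ERAD genes. The median of A549 minus H441 over the 120 was -0.51, between that of the members and that of all genes.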

How the data were processed

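Total RNA of 4 transfected cultures was hybridised to Affymetrix whole-transcript arrays, per the labels' protocols. The authors deposited log2 signals per probe set, and RMA is the method in the submitters' processing notes. No source used here names its software, or says if both lines were normalized jointly. Values of 4.20 to 14.83 put them on the log2 scale. RMA compresses differences of dim probe sets.

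Of 28869 probe sets, 19310 had 1 gene symbol and were used, and each member had 1 probe set. Genes whose highest array reached the table median (6.13) were tested, 12740 in all, with limma 3.58.1 in R 4.3.3 (siRNA and cell line, two-sided, Benjamini-Hochberg over all genes, threshold 0.05, prior worth 22.3 degrees of freedom). Differences within a line are single arrays with no test. With 1 residual degree of freedom per gene, p-values and standard errors rest mostly on the prior, which all genes tested share. The standard errors of the members ran only from 0.117 to 0.145. None of these measures the spread between repeat cultures. On simulated arrays, 200 genes were shifted by the same amount in both lines. The siRNA test recovered 97% of them at a shift of 0.6, making 12 false calls, and 100% at a shift of 1, making 13. Smaller changes and changes in 1 line alone were not simulated, so these shares do not apply to them. Simulated noise was equal for all genes.

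Values on every array were to be given for every member called in either contrast or at least 1.5-fold different, and for the sensors and factors. TRIB3, CANX and PDIA6 were added so that every member is shown. The members and lists were chosen with earlier results of these data known. Alternatives tried were 3 rescalings, 2 filters, the mean of probe sets, a trended prior, and fits without the cell line or the siRNA.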

Additional observations from a re-analysis of the deposited data

Results flagged for a closer look

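DNAJC3, the p58IPK cochaperone gene, had opposite differences in the 2 lines, siTAZ minus siNTC being 0.56 in A549 and -0.23 in H441. It is listed as the member with opposite signs and both sizes above 0.17, the SD of a difference of 2 arrays in the limma fit, which is a rule for listing and no test. Each is 1 array against 1 array, and the difference between the lines was not tested. Over the 3 rescalings the A549 value lay between 0.55 and 0.56 and the H441 value between -0.31 and -0.18.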

How the results depend on the processing

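Members called over both lines after siTAZ numbered 0, against 1 (VLDLR) after median centring and 2 (ERO1A and VLDLR) with a trended prior. All genes called numbered 315, against 400, 142 and 20 after median centring, quantile normalization and cyclic loess, 92 without the filter, 594 with a trended prior and 0 without the cell line. That last fit gave 0 members at an unadjusted p under 0.05, and the smallest adjusted p of a member elsewhere ranged up to 0.27. Members at least 2-fold higher in H441 numbered 13, against 8 after quantile normalization and 8 after cyclic loess. Members higher in A549 numbered 4, and 2 without the siRNA in the fit, where VLDLR and DERL2 lost their call. CHAC1 and VLDLR remained the 2 members at least 1.5-fold lower in A549 under each rescaling, filter and use of probe sets. Members higher with siTAZ by any amount in H441 numbered 18 of 36, against 8, 24 and 23 after median centring, quantile normalization and cyclic loess.

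Some signs turned with the scaling. For siTAZ, median centring gave -0.036 for HYOU1, -0.033 for MANF and -0.011 for ATF4. Quantile normalization gave 0.033 for HSPA5 and 0.020 for HERPUD1, and cyclic loess 0.0012 for ATF6, 0.043 for HSPA5 and 0.018 for HERPUD1. For A549 minus H441, median centring gave 0.094 for CANX, 0.021 for ATF4 and 0.0084 for TRIB3. Quantile normalization gave 0.24 for CANX, 0.038 for PDIA6, 0.22 for ATF4, 0.24 for TRIB3 and 0.029 for PSAT1. Cyclic loess gave 0.29 for CANX, 0.14 for PDIA6, 0.23 for ATF4, 0.23 for TRIB3 and 0.0062 for PSAT1. The cause was not tested. The labels give no replicate numbers, and the cell line is the only pairing of siTAZ with siNTC, which the fit holds as its block. With 1 array per group, the number of arrays limits the precision of every value.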
